A study of Mus musculus with 13 samples.

Results

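The genes that differed between 4T1-Thy1.1 cells given doxorubicin (DOX) together with interleukin-17A (IL-17A) and untreated cells of the same line were examined. Every gene of the expression table was taken, and 12319 of the 13222 listed genes had enough reads to be tested. The comparison rested on 3 control libraries (replicates 1, 3 and 5) and 3 DOX+IL-17A libraries (replicates 2, 3 and 5), 6 of the 13 libraries of the study. 4T1 is a mammary carcinoma line from BALB/c mice used as a model of triple negative breast cancer, and the cells here also carry the Thy1.1 form of the surface protein Thy1. Cells were plated at 25% confluency, per the labels in DMEM/F12 medium with serum, whereas the study's methods name a different medium for 4T1 cells. They then received 200 ng/mL DOX and 25 ng/mL recombinant mouse IL-17A for 48 h, or nothing, which was the control. The other libraries came from cells given 200 ng/mL DOX alone (n = 4) or 25 ng/mL IL-17A alone (n = 3). All libraries came from a single cell line, and the labels do not say whether the replicates of a condition are separate cultures. The study's methods speak of biological replicates in general and not of these libraries, so p-values measure the spread between libraries, which may be technical.

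DOX is an anthracycline that inserts into DNA and traps topoisomerase II on it, which leaves double strand breaks and starts the DNA damage response. IL-17A is a cytokine made mainly by T cells. It binds a receptor of the IL-17RA and IL-17RC chains on epithelial cells, and the adaptor Act1 then engages NF-kB and C/EBP factors and stabilizes short-lived transcripts, classically those of neutrophil chemokines and of Lcn2. Broken or mislocated DNA can also engage the interferon pathway, whose target genes carry response elements bound by STAT and IRF factors.

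Libraries held the 3' ends of polyadenylated transcripts, and the deposited values were TMM-normalized units, hereafter units, from which whole reads could be recovered. Control libraries held 6583757 to 16930600 reads (median 8825324) and DOX+IL-17A libraries 4445592 to 16152120 (median 9077387). A count of 3 reads, taken as the smallest detectable, was worth 0.183 to 0.613 units over all libraries, and this limit covers counting error only. Libraries of one group differed beyond counting error, as the chi-square over its degrees of freedom was 20.2 to 182 for each pair. Control replicate 1 stood apart. On the second principal component, which held 20.5% of the variance, it lay at 74.7, against -39.4 and -24.2 for the other controls and 10.4 to 23.4 for the DOX+IL-17A libraries. Results are therefore also given without it where it moved them most. All 7 mammary epithelial markers examined were listed, and their summed level was 1974 to 2357 units in control and 872 to 1081 with DOX+IL-17A. Of the other markers, 1 of 6 T cell genes (*Trac*), 4 of 6 leukocyte genes, 4 of 6 fibroblast genes and 0 of 4 endothelial genes were listed. The sums of the first 3 sets in the 6 libraries were at most 27.7, 21.3 and 105 units. *Ptprc*, at 1.52, 0.0609 and 0.471 units in control and 2.45, 3.57 and 2.996 with DOX+IL-17A, and *Dcn*, at 0.169, 0.304 and 0.236 and 1.43, 2.38 and 2.43, were called higher. Summed skeletal muscle genes were at 4.71 to 30.5 units in control and 5.76 to 8.998 with DOX+IL-17A, those of red blood cells at 0.943 to 14.4 and 0.397 to 3.89, and *Alb*, the only listed liver gene, at 0 and at 0.298 to 2.25. Over all 13 libraries the sums reached 206 units for skeletal muscle, 66.5 for red blood cell and 51.3 for leukocyte genes, in libraries of DOX or IL-17A alone. Those libraries share the estimate of the spread. The part of these genes in the results was not tested. *Thy1* was at 179, 78.8 and 79.9 units in control replicates 1, 3 and 5 and 64.2, 67.4 and 81.8 in DOX+IL-17A replicates 2, 3 and 5, and the gene-level values do not separate the Thy1.1 form from the native gene. In bulk RNA, fewer cells of a kind and less RNA per cell cannot be told apart.

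Relative to control, 856 genes were higher (6.95% of the tested genes) and 733 lower (5.95%) with DOX+IL-17A, in limma at a Benjamini-Hochberg adjusted p under 0.05 and more than 2-fold. Of these, 641 of the genes called higher and 506 of those called lower were also called in the same direction with DOX alone, against the same controls. At the adjusted p alone there were 1154 higher and 1028 lower, and 4006 genes had an unadjusted p under 0.05. Most changes were modest in size. The log2 fold change exceeded 2 in 128 of the genes that rose and 105 of those that fell, and exceeded 4 in 7 and 3. The 3 libraries of each group did not overlap for 813 of the genes called higher and 716 of those called lower. Over all tested genes, the DOX+IL-17A libraries all lay above the controls in 15.6% and all below them in 14.5%. Over all tested genes the median change was 0.04 on the log2 scale, and it was 0.20 when libraries were scaled by size alone, where the calls split into 1227 higher and 517 lower. Without control replicate 1 there were 897 higher and 847 lower, of which 620 and 569 were also called with it. A fit to the 6 libraries of these conditions alone, with 4 residual degrees of freedom in place of 9, called 305 higher and 294 lower. In the plot of fold change against level calls in both directions spread over low and high levels, and *Cxcl5* and *Cxcl1* combined a high level with a large change.

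**Figure D1:**
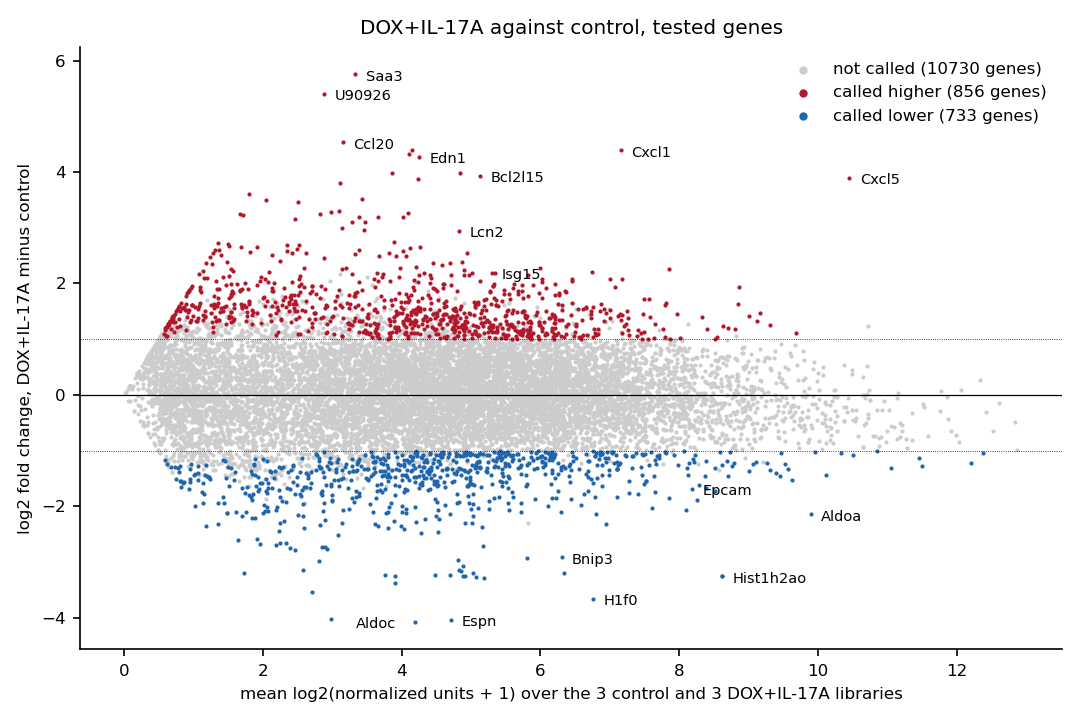
Log2 fold change of each tested gene, DOX+IL-17A minus control, against its mean log2(units + 1) over the 6 libraries. Red points are the 856 genes called higher, blue points the 733 called lower and grey points the rest, with dotted lines at a fold change of 2 and a few genes labelled.

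Well expressed here means a mean over all 13 libraries above 21.9 units, the median of tested genes. That mean includes the treated libraries, so a gene low in control can pass. Among well expressed called genes whose groups did not overlap, those that rose most were led by chemokines and inflammatory regulators. Values are given for control replicates 1, 3 and 5 and then for DOX+IL-17A replicates 2, 3 and 5, and each log2 difference is the fitted log2 fold change ± its standard error. *Cxcl5*, a chemokine that draws neutrophils through CXCR2, was at 319, 420.5 and 357 units in control and 5683, 4824 and 5733 with DOX+IL-17A, a log2 difference of 3.89 ± 0.55 (adjusted p = 0.00040). Its 3 treated values lay close together, and their mean was 14.8 times that of control. *Cxcl1*, another ligand of CXCR2, was at 24.7, 46.9 and 23.7 units and 1000.4, 724 and 384, a log2 difference of 4.39 ± 0.77 (adjusted p = 0.0017). *Cxcl2*, which acts on the same receptor, was at 4.57, 1.46 and 3.18 units and 108, 85.7 and 48.1, a log2 difference of 4.33 ± 0.56 (adjusted p = 0.00026). For both genes the lowest treated library was replicate 5. *Ccl20*, the ligand of CCR6, was at 1.69, 1.096 and 0.118 units and 87.9, 78.6 and 9.99, a log2 difference of 4.53 ± 0.78 (adjusted p = 0.0015). Replicate 5 was far below the other treated libraries of *Ccl20*, and without it the log2 fold change was 5.51, adjusted p = 0.00055. The Cxcl genes lie in a cluster on the plus strand of chromosome 5 of mm10, with *Cxcl5* at chr5:90759360-90761624, *Cxcl1* at chr5:90891241-90893115 and *Cxcl2* at chr5:90903871-90905938, whereas *Ccl20* lies at chr1:83116766-83119167. *Ccl20* was not called with voom with limma (adjusted p = 0.071).

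The promoter of *Cxcl2* is shown as an example of a chemokine promoter with an NF-kB site, from 250 bases before to 50 after the start, as RefSeq gives it for GRCm38.p6 at chr5:90903649-90903948 on the plus strand. Capitals mark 2 overlapping matches to the NF-kB consensus, one on each strand, whose first letters lie 97 and 96 bases before the start.
Cxcl2: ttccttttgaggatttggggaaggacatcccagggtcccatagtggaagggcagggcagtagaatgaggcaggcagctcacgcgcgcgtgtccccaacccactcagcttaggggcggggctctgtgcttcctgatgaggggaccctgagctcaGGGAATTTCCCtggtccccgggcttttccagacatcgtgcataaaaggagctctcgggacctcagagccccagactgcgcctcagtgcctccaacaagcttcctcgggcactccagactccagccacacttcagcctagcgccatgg
Such a match was present in 10.1% of the promoters of all tested genes with an entry. A match describes the letters only and does not show that a factor binds there. Only 77.8% of tested genes had a promoter entry, below the 80% required here, so shares were not compared between gene sets.

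Other leading genes came from several classes. *Il1a*, the cytokine IL-1 alpha, was at 6.26, 5.85 and 6.60 units in control and 162, 149 and 60.4 with DOX+IL-17A, a log2 difference of 3.98 ± 0.54 (adjusted p = 0.00033). *Cebpd*, the transcription factor C/EBP delta, was at 4.40, 2.31 and 2.24 units and 134, 80.1 and 49.1, a log2 difference of 4.40 ± 0.59 (adjusted p = 0.00033). Replicate 5 was the lowest treated library of both genes. *Edn1*, which encodes the vasoconstrictor peptide endothelin-1 and lies at chr13:42301476-42307990, was at 3.21, 3.23 and 3.54 units and 95.5, 82.8 and 71.0, a log2 difference of 4.27 ± 0.28 (adjusted p = 6.1e-07) and 25.0 times control in the mean. Among the 12 leading genes its standard error was the smallest. *Selp*, the adhesion receptor P-selectin, was at 6.09, 3.17 and 4.71 units and 76.5, 49.9 and 37.0, a log2 difference of 3.26 ± 0.50 (adjusted p = 0.00067). *Rgs16*, a brake on G protein signaling, was at 1.02, 7.18 and 6.25 units and 71.0, 96.0 and 53.8, a log2 difference of 3.88 ± 0.59 (adjusted p = 0.00065). Control replicate 1 was the lowest control of *Rgs16*, and without it the log2 fold change was 3.24. *Bcl2l15*, a member of the BCL2 family, rose by 3.94 (adjusted p = 3.0e-06) and *Plekhs1*, a pleckstrin homology domain protein, by 3.98 (adjusted p = 3.0e-05) on the log2 scale. *Lcn2*, which binds bacterial siderophores, was at 12.9, 7.98 and 7.54 units and 150.3, 66.2 and 47.1, a log2 difference of 2.95 ± 0.82 (adjusted p = 0.023). Treated replicate 2 of *Lcn2* was well above the other treated libraries. The call of *Lcn2* was lost without control replicate 5 or without DOX+IL-17A replicate 2 or 3 (adjusted p = 0.066, 0.10 and 0.055). The plot of the 12 leading genes shows every library of the 4 conditions. *Lcn2* was not called with a pseudocount of 0.1 (adjusted p = 0.051).

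**Figure D2:**
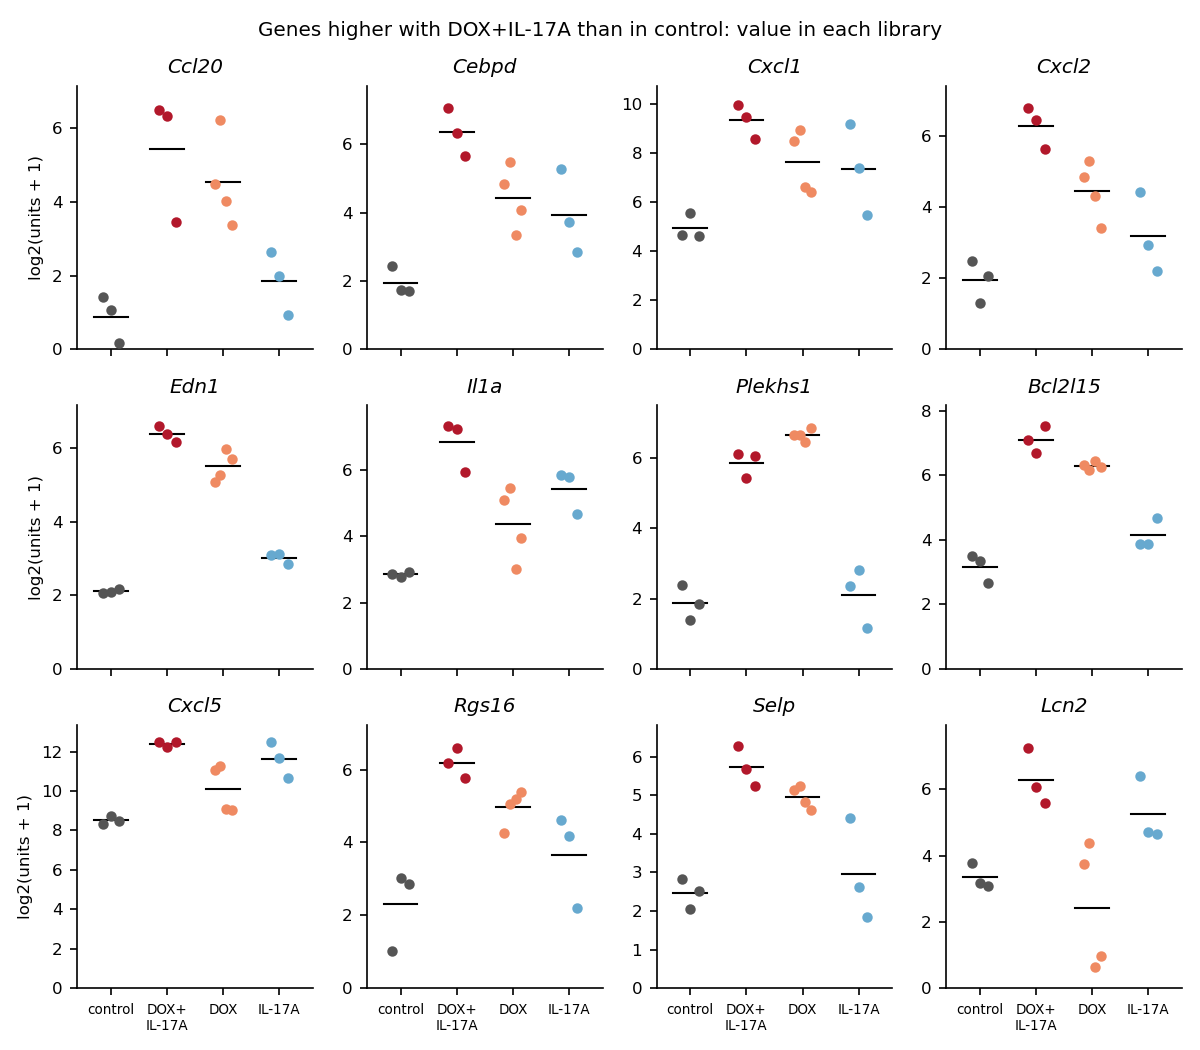
Value of each library, as log2(units + 1), for the 12 well expressed genes that rose most with DOX+IL-17A. Points are libraries of control, DOX+IL-17A, DOX and IL-17A, and bars are group means. Genes were chosen among those whose DOX+IL-17A libraries all lie above the controls.

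Many genes known to respond to IL-17A rose. This list and those below were chosen with earlier results of these data known, so their shares and medians are description and no test. Of 22 tested genes of this class, 17 rose (77.3%), where 6.95% of all tested genes did, and 0 fell, with a median log2 fold change of 2.57 against 0.04 for all tested genes. Without control replicate 1 the count was 16 and the median 2.70, but the count was 11 without DOX+IL-17A replicate 2 and 10 without DOX+IL-17A replicate 3. Side by side, with the control libraries shared, medians against control were 2.57 for DOX+IL-17A, 1.25 for DOX and 0.77 for IL-17A alone. All tested genes had medians of 0.04, 0.09 and 0.02. Relative to DOX alone 4 members were higher and 0 lower, against 0.114% and 0.325% of tested genes. With IL-17A alone 0 members were called, where 1 of all tested genes was. Besides the genes above, *Saa3*, an acute phase protein, was at 1.18, 0.0609 and 0.118 units in control and 138, 37.8 and 74.2 with DOX+IL-17A, a log2 difference of 5.75 ± 0.76 (adjusted p = 0.00028). *Csf3*, *Csf2* and *Il6* were named after their values were seen. *Csf3*, the neutrophil growth factor G-CSF, was at 39.2, 1.64 and 3.18 units and 76.7, 40.8 and 33.6, with overlapping groups and a log2 fold change of 2.66 (adjusted p = 0.025). Control replicate 1 alone overlapped, and without it the log2 fold change was 3.86. *Csf2*, the growth factor GM-CSF, was at 0.169, 0 and 0 and 6.13, 7.55 and 3.25 units, and was called higher (adjusted p = 0.00040), with a single read in all controls. *Il6* was listed at 0 in the 3 controls and at 9.41, 19.2 and 7.49 units in the treated libraries, at least 34.5-fold higher than the mean of 3 reads per control library. *Zc3h12a*, the ribonuclease Regnase-1 that degrades inflammatory transcripts, was at 15.6, 12.1 and 8.37 and 60.3, 76.6 and 83.9 units, a log2 difference of 2.54 ± 0.39 (adjusted p = 0.00075). *Nfkbiz*, the IkB zeta cofactor through which IL-17A acts on *Lcn2*, was at 106, 52.0 and 41.1 and 257, 301 and 235 units, a log2 difference of 2.09 ± 0.42 (adjusted p = 0.0042). *Mmp13*, a collagenase, had a log2 fold change of 2.04 (adjusted p = 0.041), or 1.14 without control replicate 1, and its call was lost without control replicate 1 or without DOX+IL-17A replicate 2, 3 or 5 or without DOX replicate 1, 3 or 4 (adjusted p = 0.12, 0.060, 0.13, 0.093, 0.055, 0.054 and 0.054). *Mmp9*, a gelatinase, was called with a log2 fold change of 1.93 (adjusted p = 0.017), or 1.20 without control replicate 1, and its call was lost without DOX+IL-17A replicate 3 or 5 (adjusted p = 0.061 and 0.065). Members that were not called were *S100a9*, *Mmp3*, *Cebpb*, *Tnfaip3* and *Tslp*, named because they complete the list. *Cebpb* had a log2 fold change of 0.30 (adjusted p = 0.65) beside its relative *Cebpd*, and *Tnfaip3*, the NF-kB inhibitor A20, of -0.05 (adjusted p = 0.96). *Mmp13* was not called with edgeR (adjusted p = 0.088) or with a pseudocount of 0.1 (adjusted p = 0.052).

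The wider set of cytokines, chemokines and growth factors, which shares members with the class above, held 17 genes that rose (53.1%) and 3 that fell (9.38%) among 32 tested, against 6.95% and 5.95% of all tested genes, with a median of 1.996 (2.06 with the 2 members listed at 0 in all controls set at their lower bounds). Those that fell were *Il18*, at 7.44, 7.31 and 10.8 units in control and 0.818, 2.58 and 1.44 with treatment (log2 fold change -1.90, adjusted p = 0.0032), *Vegfa*, the angiogenic factor VEGF-A, at 45.0, 52.4 and 42.9 and 19.8, 20.3 and 11.05 (log2 fold change -1.45, adjusted p = 0.0038), and *Il1b* at 6.77, 4.44 and 4.95 and 2.45, 2.18 and 0.936 (log2 fold change -1.19, adjusted p = 0.034). *Il1b* and *Il1a*, genes of the same family, thus moved in opposite directions. The call of *Il1b* was lost without control replicate 1 or 5 or without DOX+IL-17A replicate 3 or 5 (adjusted p = 0.077, 0.074, 0.057 and 0.11). *Il1b* was not called with edgeR (adjusted p = 0.055) or with scaling by library size (adjusted p = 0.059).

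Of 14 tested receptor and adaptor genes of the IL-17 pathway 2 rose (14.3%) and 0 fell, against 6.95% and 5.95% of all tested genes, with a median of 0.04, or 0.20 without control replicate 1. *Il17ra*, the shared receptor chain, was at 63.8, 35.5 and 36.2 units in control and 39.1, 35.6 and 58.9 with DOX+IL-17A, a log2 difference of 0.00 ± 0.30 (adjusted p = 0.999). *Il17rc*, its partner chain for IL-17A, was at 12.7, 9.68 and 10.02 and 18.2, 7.75 and 10.2 units, a log2 difference of 0.08 ± 0.40 (adjusted p = 0.92). The groups overlapped for both chains. *Traf3ip2*, which encodes Act1, had a log2 fold change of -0.22 (adjusted p = 0.66) and *Traf6*, the ubiquitin ligase it recruits, of 0.01 (adjusted p = 0.99). *Tab2*, the most abundant, had a log2 fold change of 0.13 (adjusted p = 0.63). Those that rose were *Zc3h12a*, a negative regulator of the pathway already given, and *Traf4*, which competes for Act1, at 13.4, 14.2 and 12.5 and 50.7, 47.3 and 32.0 units, 3.24 times control in the mean (adjusted p = 0.00089). Of 22 NF-kB subunits, inhibitors and regulators, 3 rose (13.6%) and 0 fell, with a median of 0.44, and 6 rose without control replicate 1. All 3 belong to the inhibitor family. *Nfkbib*, IkB beta, was at 29.8, 34.1 and 30.8 and 144, 119 and 130.0 units, a log2 difference of 2.02 ± 0.18 (adjusted p = 2.3e-05). *Nfkbia*, IkB alpha, was at 193, 494 and 433 and 968, 1095 and 832 units, a log2 difference of 1.47 ± 0.29 (adjusted p = 0.0038), and the last was *Nfkbiz*. Of 24 AP-1 and immediate early genes, 5 rose (20.8%) and 0 fell (median 0.51). *Fos* led them, at 2.88, 0.670 and 0.825 and 14.1, 16.7 and 10.7 units, a log2 difference of 2.68 ± 0.46 (adjusted p = 0.0015). *Ier5* rose from 19.1, 42.1 and 35.1 to 124, 129 and 144 units, a log2 fold change of 2.08 (adjusted p = 0.00034), and *Klf6*, the most abundant member, had a log2 fold change of 0.19 (adjusted p = 0.61). *Atf3* is given with the ATF4 genes.

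Among well expressed called genes whose groups did not overlap, those that fell most were mainly histone genes, together with *Aldoc*, *Espn*, *Sspn* and *H1f0*. *H1f0*, the replacement linker histone H1.0, which lies outside the histone clusters at chr15:79028450-79030504, was at 335, 412 and 411 units in control and 42.9, 29.7 and 20.2 with DOX+IL-17A, a log2 difference of -3.66 ± 0.31 (adjusted p = 8.5e-06). Its controls lay close together and the treated libraries lay far below them. *Aldoc*, the aldolase C isoform of glycolysis, was at 45.2, 81.9 and 108 units and 2.66, 2.78 and 5.37, a log2 difference of -4.07 ± 0.41 (adjusted p = 4.0e-05). *Espn*, the actin bundling protein espin, was at 126, 88.0 and 105 units and 5.93, 4.77 and 5.68, a log2 difference of -4.04 ± 0.46 (adjusted p = 0.00012). *Sspn*, the membrane protein sarcospan, was at 82.6, 105 and 128 units and 9.20, 11.4 and 8.93, a log2 difference of -3.27 ± 0.31 (adjusted p = 2.4e-05). That the groups of these 4 genes did not overlap was required by the rule that chose them.

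Of 59 replication-dependent histone genes tested, 29 fell (49.2%) and 0 rose, where 5.95% of all tested genes fell, with a median log2 fold change of -1.48, and 57 of the 59 had a negative value. Without control replicate 1 these were 27 and -1.20. The median with DOX alone, against the same controls, was -1.29 (0.09 for all tested genes). *Hist1h2ao*, an H2A gene of the cluster on chromosome 13, was at 2936, 663 and 911 units in control and 149, 108 and 124 with DOX+IL-17A, a log2 difference of -3.26 ± 0.49 (adjusted p = 0.00062). *Hist1h2ae*, at chr13:23570517-23571220, was at 286, 60.3 and 82.6 units and 9.82, 9.93 and 12.2, a log2 difference of -3.29 ± 0.53 (adjusted p = 0.00092). Control replicate 1 was the highest control by far for both, and without it each log2 fold change was -2.62 (adjusted p = 0.00032 for *Hist1h2ao* and 0.00076 for *Hist1h2ae*). The linker histone *Hist1h1c* had 72.1, 30.4 and 41.6 units and 8.18, 3.57 and 1.69, a log2 difference of -3.25 ± 0.47 (adjusted p = 0.00044). *Hist1h2ad*, *Hist1h2ac*, *Hist1h2ai* and *Hist1h2ah* were also among the 12 that fell most, with log2 fold changes of -3.25, -3.24, -3.23 and -3.23 and adjusted p of 0.00042, 0.00025, 0.00057 and 0.00040. Values of *Hist1h2ap* were nearly identical to those of *Hist1h2ao*, and near-identical genes of the family share reads, so these are not separate measurements. Most transcripts of these genes end in a stem loop without a poly(A) tail, so libraries primed on poly(A) capture only a part of them. The plot of the 12 genes that fell most shows the spread of the controls.

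**Figure D3:**
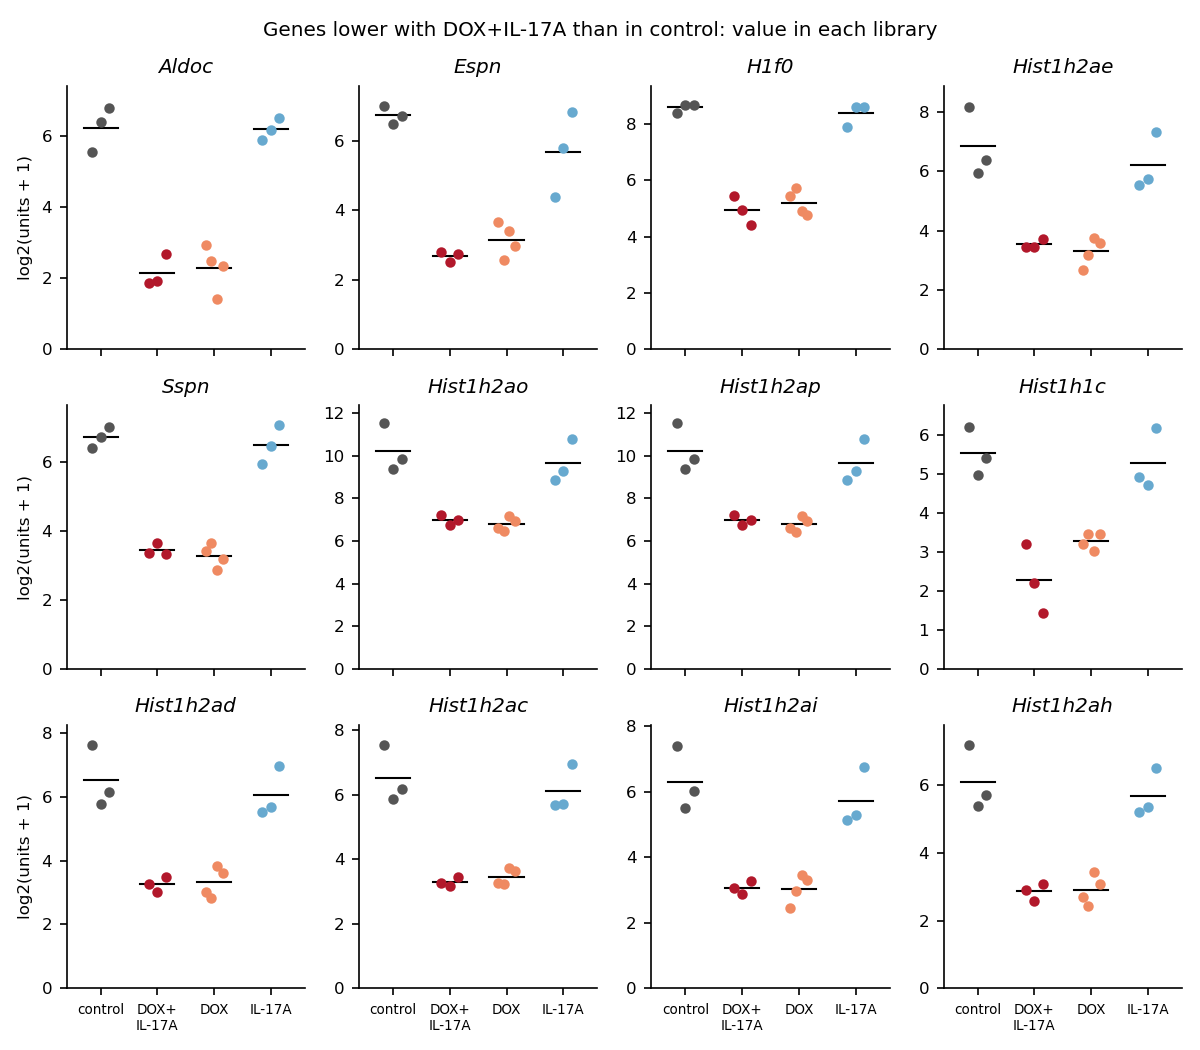
Value of each library, as log2(units + 1), for the 12 well expressed genes that fell most with DOX+IL-17A. Points are libraries of the 4 conditions and bars are group means. Genes were chosen among those whose DOX+IL-17A libraries all lie below the controls. Control replicate 1, the first control point, is the highest control of the Hist1 genes.

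Many genes of glycolysis and of the hypoxia response fell. Of 20 glycolysis genes 11 fell (55.0%) and 0 rose, against 5.95% and 6.95% of all tested genes, with a median log2 fold change of -1.25. *Aldoa*, the main aldolase, was at 1959, 1829.5 and 2232 units in control and 453, 354 and 576 with DOX+IL-17A, a log2 difference of -2.14 ± 0.23 (adjusted p = 7.4e-05). *Pfkp*, the platelet isoform of phosphofructokinase, was at 149, 134 and 179 and 27.8, 13.6 and 18.8 units, a log2 difference of -2.92 ± 0.34 (adjusted p = 0.00014). *Pgam1*, phosphoglycerate mutase and the most abundant member, was at 3955, 2656 and 3562 and 1175, 1142 and 1815 units, a log2 difference of -1.31 ± 0.29 (adjusted p = 0.0071). The treated libraries of each all lay below the lowest control. Of 24 hypoxia target genes 13 fell (54.2%) and 1 rose (4.17%), with a median of -1.38, and 18 fell without control replicate 1. The median of this list with DOX alone was -1.28. *Adm*, the peptide hormone adrenomedullin, was at 13.5, 43.2 and 48.7 and 0, 1.19 and 2.43 units, a log2 difference of -4.02 ± 0.53 (adjusted p = 0.00027). *Bnip3*, a receptor for the removal of mitochondria, was at 194, 200.3 and 261 and 33.3, 29.3 and 22.0 units, a log2 difference of -2.92 ± 0.27 (adjusted p = 2.4e-05). *Ankrd37* was at 6.60, 29.0 and 30.2 and 4.50, 0.695 and 1.62 units, a log2 fold change of -2.73 (adjusted p = 0.0047) and of -3.40 without control replicate 1. Control replicate 1 was the lowest control for *Adm* and *Ankrd37* and for *Ndrg1*, the most abundant member. *Ndrg1* was at 257, 796 and 950.4 and 342, 187 and 196 units with overlapping groups, a log2 fold change of -1.32 (adjusted p = 0.032) that became -1.90 (adjusted p = 0.00026) without that control. Its call was lost without control replicate 3 or 5 or without DOX+IL-17A replicate 3 or 5 (adjusted p = 0.088, 0.13, 0.11 and 0.089). The single member that rose was *Loxl2*, a lysyl oxidase, whose log2 fold change of 1.66 (adjusted p = 0.038) was 2.28 without control replicate 3, and whose call was lost without control replicate 1 or 5 or without DOX+IL-17A replicate 2 or 3 or without DOX replicate 1 or 4 (adjusted p = 0.12, 0.078, 0.14, 0.087, 0.051 and 0.053). Its log2 fold change without control replicate 1 was 0.99. *Ndrg1* was not called with scaling by library size (adjusted p = 0.065). *Loxl2* was not called with DESeq2 (adjusted p = 0.077), edgeR (adjusted p = 0.15), a pseudocount of 0.1 (adjusted p = 0.060) or voom with limma (adjusted p = 0.12).

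Many interferon-stimulated genes rose with DOX+IL-17A, and some were lower than with DOX alone. Of 45 tested genes 20 rose (44.4%) and 0 fell relative to control, against 6.95% and 5.95% of all tested genes, with a median log2 fold change of 1.01. The number that rose was 23 without control replicate 1, 12 without DOX+IL-17A replicate 2 and 9 in the fit to the control and DOX+IL-17A libraries alone. Relative to DOX alone, 20 were lower and 0 higher, against 0.114% of tested genes called higher and 0.325% lower in that comparison, and the median was -1.33 (-0.03 for all tested genes). How far this count of 20 depended on single libraries is not given here. Side by side, with the control libraries shared, the medians against control were 1.01 for DOX+IL-17A, 2.36 for DOX and -0.01 for IL-17A alone, against 0.04, 0.09 and 0.02 for all tested genes. *Zbp1*, a nucleic acid sensor, was at 2.03, 6.45 and 5.89 units in control, 30.5, 32.6 and 25.7 with DOX+IL-17A, 79.2, 91.1, 109 and 116 with DOX and 6.31, 5.50 and 6.48 with IL-17A alone. The DOX+IL-17A libraries lay between those of control and DOX without overlap. Its log2 difference of 2.50 ± 0.32 (adjusted p = 0.00026) against control stood beside -1.70 ± 0.30 (adjusted p = 0.020) against DOX. *Ifi44* was at 14.0, 8.95 and 16.3 units in control, 80.2, 53.4 and 60.0 with DOX+IL-17A and 210.1, 213, 405 and 452 with DOX, differing by 2.24 (adjusted p = 0.00088) from control and -2.23 ± 0.33 (adjusted p = 0.0088) from DOX. *Cxcl10*, a chemokine for T cells, was at 4.06, 5.85 and 4.36 units in control, 79.5, 29.5 and 22.0 with DOX+IL-17A and 83.1, 90.0, 127 and 167 with DOX. It rose by 2.75 (adjusted p = 0.0015) against control, and treated replicate 2 came close to the lowest DOX library, with a difference from DOX of -1.56 ± 0.44 (adjusted p = 0.25). For *Zbp1*, *Ifi44* and *Cxcl10*, DOX replicates 3 and 4 both lay above DOX replicates 1 and 2. *Ifi27*, the most abundant member, was at 57.9, 137 and 139 units in control and 325, 299 and 414 with DOX+IL-17A, a log2 difference of 1.72 ± 0.29 (adjusted p = 0.0014).

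*Isg15*, a ubiquitin-like modifier, was at 16.1, 24.1 and 13.6 units in control, 139.9, 79.4 and 51.2 with DOX+IL-17A and 362, 368, 513 and 462 with DOX, with no overlap between the conditions. It rose by 2.19 ± 0.41 on the log2 scale against control (adjusted p = 0.0024). It was named by its calls against both control and DOX, which favour groups that do not overlap. Its promoter is shown because it holds adjoining copies of the interferon-stimulated response element GAAANNGAA, marked in capitals, with first letters 78, 72 and 66 bases before the start. The sequence is that of RefSeq for GRCm38.p6, chr4:156200769-156201068 on the minus strand, from 250 bases before to 50 after the start.
Isg15: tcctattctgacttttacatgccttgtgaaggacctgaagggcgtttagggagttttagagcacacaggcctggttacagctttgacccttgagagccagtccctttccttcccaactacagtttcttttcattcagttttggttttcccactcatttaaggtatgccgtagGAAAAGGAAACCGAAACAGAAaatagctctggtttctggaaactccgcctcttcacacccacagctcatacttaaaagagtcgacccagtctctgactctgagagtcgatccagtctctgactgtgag
On either strand, 7.22% of the promoters of all tested genes with an entry held this motif.

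Class I antigen presentation genes were called higher at a share near that of all tested genes. Of 16 tested, 1 rose (6.25%) and 0 fell relative to control, against 6.95% and 5.95% of all tested genes, with a median of 0.10. Relative to DOX alone 2 were lower, where 0.325% of all tested genes were, with a median of -0.81 (-0.03 for all tested genes). The gene that rose was *B2m*, the light chain of class I molecules, at 423, 684 and 614 units in control and 1924, 1258 and 737 with DOX+IL-17A (log2 fold change 1.11, adjusted p = 0.026). Its call was lost without control replicate 1 or 5 or without DOX+IL-17A replicate 2 or 3 (adjusted p = 0.051, 0.052, 0.12 and 0.075). *Tap1*, the peptide transporter, was at 18.6, 15.3 and 14.9 units in control, 16.2, 12.3 and 8.99 with DOX+IL-17A and 39.5, 42.5, 62.5 and 55.8 with DOX, a difference of -0.39 (adjusted p = 0.38) from control and -1.93 ± 0.27 (adjusted p = 0.0052) from DOX. *Psmb8*, an immunoproteasome subunit, was at 34.0, 66.2 and 63.3, 57.3, 57.6 and 55.5 and 127, 145, 185 and 152 units in the same order, a difference of 0.12 (adjusted p = 0.78) from control and -1.39 ± 0.23 (adjusted p = 0.012) from DOX. *Tap1* and *Psmb8* are the 2 members called lower than with DOX and do not stand for the class. For both, the DOX+IL-17A libraries lay within or below the range of the controls. The plot of fold changes side by side sets the members of the interferon and IL-17A response classes against each other.

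**Figure D4:**
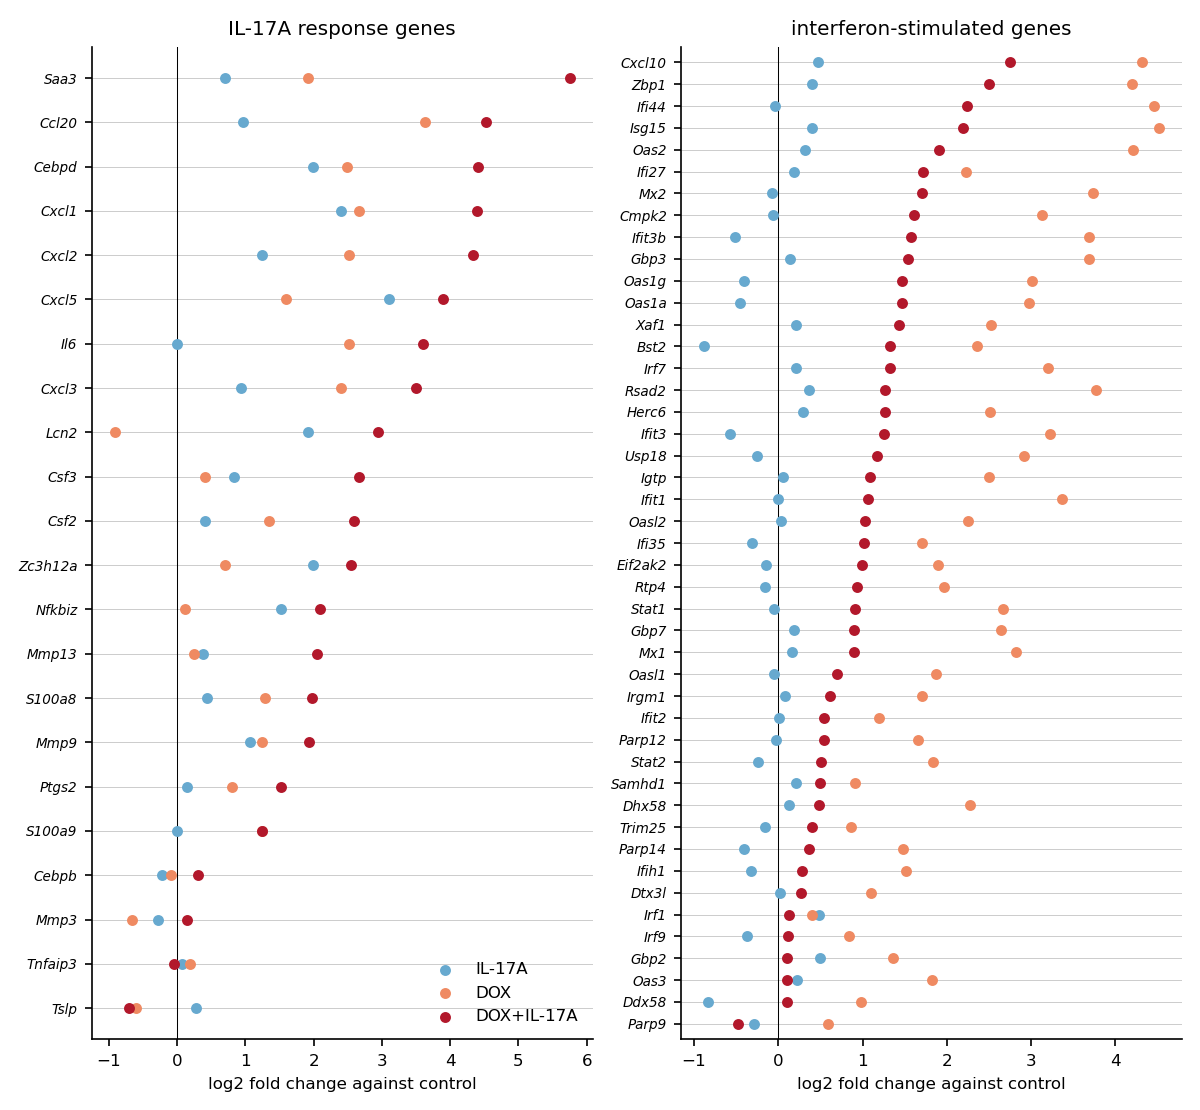
Log2 fold change against control of each IL-17A response gene (left) and each interferon-stimulated gene (right) with DOX+IL-17A (red), DOX (orange) and IL-17A alone (blue), ordered by the DOX+IL-17A value. The control libraries are shared. The medians for DOX+IL-17A, DOX and IL-17A were 2.57, 1.25 and 0.77 on the left and 1.01, 2.36 and -0.01 on the right.

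A small group of genes differed both from control and from DOX alone. All 25 such genes were higher than in control, 10 of them also higher than with DOX and 15 lower than with DOX. Being called against both groups favours libraries that do not overlap, so a lack of overlap in these genes is no separate result. A further 29 genes were called against DOX only. The count of 25 depended on single libraries. It was 44 without control replicate 1, 10 without DOX replicate 3 and 4 without DOX replicate 4. It was 10, 1 and 3 without treated replicates 2, 3 and 5. The 10 genes were *Lcn2*, *Saa3*, *U90926*, *Dgat2*, *Prss12*, *Il1a*, *Prl2a1*, *Nfkbiz*, *Ehf* and *Zc3h12a*. *U90926*, annotated as protein coding at chr5:92209893-92215408 on the minus strand, was at 0, 0 and 0.471 units in control, 45.4, 44.4 and 51.9 with DOX+IL-17A, 5.15, 4.38, 9.09 and 4.38 with DOX and 0.113, 0.629 and 0 with IL-17A. The DOX+IL-17A libraries lay far above all others, and the difference was 5.40 ± 0.36 from control (adjusted p = 6.1e-07) and 2.89 ± 0.33 (adjusted p = 0.0031) from DOX. *Dgat2*, which makes triglycerides, was at 0.169, 2.56 and 1.89 units in control, 24.3, 17.2 and 21.7 with DOX+IL-17A, 1.93, 3.94, 3.08 and 2.24 with DOX and 2.14, 1.89 and 3.20 with IL-17A. Its treated libraries lay above all others, with differences of 3.25 (adjusted p = 0.00025) from control and 2.56 ± 0.39 (adjusted p = 0.0090) from DOX. *Prss12*, the protease neurotrypsin, was at 5.75, 3.29 and 6.01, 16.0, 24.4 and 35.1, 4.02, 7.01, 1.54 and 2.77 and 28.5, 28.1 and 24.9 units in the same order. Its levels with DOX+IL-17A overlapped those with IL-17A alone, and it differed by 2.09 (adjusted p = 0.0036) from control and 2.50 ± 0.38 (adjusted p = 0.0090) from DOX. *Lcn2* was at 12.5, 19.7, 0.559 and 0.984 units in DOX replicates 1 to 4 and *Saa3* at 11.8, 9.63, 0.839 and 1.88, so that DOX replicates 1 and 2 were above replicates 3 and 4 for both genes.

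The 15 genes in between were *Rsad2*, *Isg15*, *Oas2*, *Ifi44*, *Gbp3*, *Ifit3b*, *Mx2*, *Ifit3*, *Irf7*, *Trim30a*, *Usp18*, *Gbp4*, *Cd274*, *Zbp1* and *Phf11d*. Many are known interferon targets, and *Cd274* encodes the checkpoint ligand PD-L1. The study reports that *Cd274* with the combination differed significantly from DOX alone and not from control. Here, in the limma fit of all 13 libraries, *Cd274* was also called higher than control. The study does not say which of its tests gave its result, so the tests may be unlike. How the call of *Cd274* held without single libraries is not given here. Those of the 25 genes given here without values were named after their values were seen. *Rsad2*, the antiviral enzyme viperin, was at 15.9, 17.96 and 12.1 units in control, 71.2, 25.3 and 30.1 with DOX+IL-17A and 181, 169, 261 and 294 with DOX, differing by 1.27 (adjusted p = 0.018) from control and -2.51 ± 0.32 (adjusted p = 0.0045) from DOX. Its call against control was lost without control replicate 5 or without DOX+IL-17A replicate 2 (adjusted p = 0.069 and 0.079). *Gbp3*, a guanylate-binding protein, was at 12.5, 13.3 and 8.96, 31.5, 39.2 and 35.0 and 102, 112, 246 and 232 units in the same order, differing by 1.54 (adjusted p = 0.0094) from control and -2.16 ± 0.34 (adjusted p = 0.0090) from DOX. *Oas2*, a sensor of double-stranded RNA, was at 0.338, 0.365 and 0.236, 2.25, 7.94 and 3.06 and 12.9, 14.7, 41.0 and 36.9 units, differing by 1.90 (adjusted p = 0.018) and -2.31 ± 0.47 (adjusted p = 0.042). Its control libraries held 2 to 6 reads, and its call against control was lost without control replicate 5 or without DOX+IL-17A replicate 3 (adjusted p = 0.054 and 0.088). In *Rsad2*, *Oas2* and *Gbp3* each combination library lay above every control and below every DOX library. These genes were chosen by their calls against both groups, which favour such an order. In all of them DOX replicates 3 and 4 lay above DOX replicates 1 and 2. *Oas2* was not called with voom with limma (adjusted p = 0.10).

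Of 23 tested p53 target genes 8 rose (34.8%) and 1 fell (4.35%), against 6.95% and 5.95% of all tested genes. Their median log2 fold change was 0.56 (0.33 without control replicate 1). The other 14 were not called, among them *Ccng1*, *Phlda3*, *Zmat3* and *Bax*. *Sesn2*, 1 of those that rose, is also counted with the ATF4 genes. Whether p53 was active in these cells was not tested. *Plk2*, a stress-responsive kinase, was at 16.9, 8.89 and 10.96 units in control and 90.8, 72.9 and 43.9 with DOX+IL-17A, a log2 difference of 2.39 ± 0.38 (adjusted p = 0.00094). *Plk3*, of the same family, was at 5.24, 4.87 and 1.65 and 25.2, 22.3 and 13.2 units, a log2 difference of 2.16 ± 0.41 (adjusted p = 0.0028). *Aen*, a nuclease active in apoptosis, was at 23.3, 7.12 and 6.72 and 20.04, 44.7 and 81.4 units with overlapping groups, a log2 fold change of 1.90 (adjusted p = 0.014). Its call was lost without control replicate 5 or without DOX+IL-17A replicate 5 (adjusted p = 0.062 and 0.062). *Cdkn1a*, the cell cycle inhibitor p21, named after its values were seen, was at 31.3, 29.0 and 28.8 and 64.6, 64.8 and 94.3 units, a log2 difference of 1.28 ± 0.28 (adjusted p = 0.0071). *Mdm2*, the ubiquitin ligase for p53, also named afterwards, was at 54.3, 85.2 and 105 and 81.8, 64.2 and 151 units, a log2 fold change of 0.23 (adjusted p = 0.62). *Perp*, the most abundant member, had a log2 fold change of -0.16 (adjusted p = 0.68). The member that fell was *Sesn1* (log2 fold change -1.30, adjusted p = 0.022), whose call was lost without control replicate 3 or without DOX+IL-17A replicate 5 (adjusted p = 0.063 and 0.067).

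DNA damage checkpoint and repair genes were near the background, with 3 higher (8.57%) and 0 lower of 35, against 6.95% and 5.95% of all tested genes (median 0.26), or 6 higher and 2 lower without control replicate 1. *Palb2*, which brings BRCA2 to breaks, was at 1.52, 1.34 and 3.18 units in control and 8.59, 5.66 and 9.36 with DOX+IL-17A, a log2 difference of 1.58 ± 0.37 (adjusted p = 0.0098). *Exo1*, an exonuclease that resects ends, had a log2 fold change of 1.35 (adjusted p = 0.026), and its call was lost without control replicate 1 or 5 or without DOX+IL-17A replicate 2 or 3 (adjusted p = 0.057, 0.085, 0.079 and 0.079). *Rad50*, the most abundant member, was at 365, 357 and 293 and 265, 305 and 325 units, a log2 fold change of -0.18 (adjusted p = 0.52). Of 32 genes of S phase and origin licensing 12 rose (37.5%) and 0 fell, with a median of 0.85, and 6 rose in the fit to the control and DOX+IL-17A libraries alone. Their median with DOX alone, against the same controls, was 0.93 (0.09 for all tested genes). *Cdc6*, which loads the replicative helicase, was at 20.5, 21.1 and 16.5 and 82.2, 63.3 and 95.5 units, a log2 difference of 1.99 ± 0.22 (adjusted p = 1.0e-04). *Orc6*, a subunit of the origin recognition complex, was at 14.0, 35.2 and 26.6 and 125, 111 and 67.04 units, a log2 difference of 1.998 ± 0.39 (adjusted p = 0.0033). *Ccne1*, cyclin E1, was at 14.5, 7.85 and 4.01 and 35.0, 40.5 and 32.5 units, a log2 difference of 2.06 ± 0.40 (adjusted p = 0.0034). *Mcm7*, the most abundant member, was at 1208, 331 and 358 and 650.1, 509 and 446 units, with control replicate 1 above all treated libraries, and had a log2 fold change of 0.01 (adjusted p = 0.99), or 0.62 (adjusted p = 0.068) without that control. Of 36 mitosis genes 2 rose (5.56%) and 0 fell (median 0.21), a share near that of all tested genes. Those that rose were *Mad2l1*, a spindle checkpoint gene (log2 fold change 1.22, adjusted p = 0.027), and *Espl1*, separase (log2 fold change 1.09, adjusted p = 0.023). The call of *Mad2l1* was lost without control replicate 1 or without DOX+IL-17A replicate 2 or 3 (adjusted p = 0.067, 0.10 and 0.094), and that of *Espl1* was lost without control replicate 1 or without DOX+IL-17A replicate 2 or 3 (adjusted p = 0.051, 0.074 and 0.068). *Cenpf*, the most abundant mitosis gene, had a log2 fold change of -0.19 (adjusted p = 0.58). *Exo1* was not called with voom with limma (adjusted p = 0.056).

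Of 30 stress response genes under ATF4 13 rose (43.3%) and 1 fell (3.33%), against 6.95% and 5.95% of all tested genes, with a median log2 fold change of 1.19. Without DOX+IL-17A replicate 2 the number that rose was 8, as it was in the fit to the control and DOX+IL-17A libraries alone. The median with DOX alone, against the same controls, was 1.04 (0.09 for all tested genes). *Chac1*, which degrades glutathione, was at 6.26, 11.3 and 2.95 units in control and 54.4, 32.9 and 33.0 with DOX+IL-17A, a log2 difference of 2.50 ± 0.38 (adjusted p = 0.00069). *Atf3*, a transcription factor induced by many stresses, was at 8.12, 4.93 and 2.71 and 34.4, 21.5 and 22.9 units, a log2 difference of 2.19 ± 0.43 (adjusted p = 0.0035). *Sesn2*, an inhibitor of mTORC1, rose by 1.83 (adjusted p = 0.0047) from 2 to 7 reads a library in control. The member that fell was *Ddit4*, another inhibitor of mTORC1 and also a hypoxia target, at 195, 833 and 996 and 205, 149 and 184 units with overlapping groups (log2 fold change -1.61, adjusted p = 0.018). Control replicate 1 was far below the other controls of *Ddit4*, and without it the log2 fold change was -2.35 (adjusted p = 6.2e-06). Its call was lost without control replicate 3 or 5 or without DOX+IL-17A replicate 3 (adjusted p = 0.057, 0.085 and 0.069). *Sars*, the most abundant member, had a log2 fold change of -0.32 (adjusted p = 0.46). Of 18 chaperone and unfolded protein response genes 4 rose (22.2%) and 0 fell (median 0.44). *Hyou1*, a chaperone of the endoplasmic reticulum, was at 16.2, 27.3 and 28.4 and 83.6, 73.4 and 75.2 units, a log2 difference of 1.69 ± 0.24 (adjusted p = 0.00042). *Herpud1*, a component of protein degradation there, was at 14.4, 30.7 and 16.0 and 70.3, 69.8 and 55.6 units, a log2 difference of 1.70 ± 0.33 (adjusted p = 0.0033). *Manf*, a secreted stress factor, had a log2 fold change of 1.44 (adjusted p = 0.037), and its call was lost without control replicate 1 or 5 or without DOX+IL-17A replicate 2 or 3 or without DOX replicate 1 (adjusted p = 0.10, 0.052, 0.15, 0.11 and 0.051). *Hspa5*, the abundant chaperone BiP, had a log2 fold change of 0.52 (adjusted p = 0.15). *Manf* was not called with voom with limma (adjusted p = 0.060).

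Some genes that build ribosomes rose. Of 24 ribosome biogenesis genes 6 rose (25.0%) and 1 fell (4.17%), against 6.95% and 5.95% of all tested genes, with a median log2 fold change of 0.83, and 10 rose without control replicate 1. Over all alternatives 2 to 13 rose. *Nop2*, which methylates ribosomal RNA, was at 57.7, 38.8 and 28.4 units in control and 144, 139.8 and 148 with DOX+IL-17A, a log2 difference of 1.83 ± 0.25 (adjusted p = 0.00040). *Rrp9*, part of a nucleolar ribonucleoprotein, was at 17.8, 6.64 and 6.95 and 42.9, 45.2 and 42.3 units, a log2 difference of 2.09 ± 0.32 (adjusted p = 0.00075). *Bop1*, needed to process the large subunit RNA, had a log2 fold change of 1.55 (adjusted p = 0.0078). *Npm1*, the abundant nucleolar chaperone nucleophosmin, was the member that fell, at 8554, 6472 and 6872 and 2445, 3047 and 3988 units, a log2 difference of -1.23 ± 0.25 (adjusted p = 0.0041). Of 79 cytosolic ribosomal protein genes 5 fell (6.33%) and 0 rose, with a median of -0.41, and 9 fell without control replicate 1 (median -0.63). The share called lower was near that of all genes, and the number was 2 without DOX+IL-17A replicate 3, 14 without DOX+IL-17A replicate 5 and 2 to 14 over all alternatives. *Rpl17* was at 1171, 1352 and 1113 and 473, 539 and 432 units, a log2 difference of -1.33 ± 0.22 (adjusted p = 0.0013), and *Rpl3* at 862, 1234 and 1388 and 404, 471 and 581, a log2 difference of -1.24 ± 0.21 (adjusted p = 0.0013). Both are proteins of the large subunit, and their groups did not overlap. *Rps20*, of the small subunit, had a log2 fold change of -1.13 (adjusted p = 0.021), and its call was lost without control replicate 1 or without DOX+IL-17A replicate 3 (log2 fold change -0.74 and -0.97), with an adjusted p of 0.091 without the latter. *Rplp1*, the most abundant member, had a log2 fold change of -0.14 (adjusted p = 0.74). Many ribosomal protein genes have processed pseudogenes, among which reads could be split. *Rps20* was not called with scaling by library size (log2 fold change -0.95).

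Of 78 nuclear genes of the respiratory chain 6 rose (7.69%) and 0 fell, against 6.95% and 5.95% of all tested genes (median 0.39), or 3 and 2 without control replicate 1. The share that rose was near that of all tested genes, and the number was 2 to 12 over all alternatives. *Uqcrq*, a subunit of complex III, was at 103, 146 and 132 units in control and 416, 350.1 and 426 with DOX+IL-17A, a log2 difference of 1.65 ± 0.20 (adjusted p = 0.00022). *Atp5g1*, the ring subunit of ATP synthase, was at 64.8, 43.0 and 39.0 and 109, 96.1 and 131 units, a log2 difference of 1.20 ± 0.24 (adjusted p = 0.0042). *Cox5a*, of cytochrome c oxidase, had a log2 fold change of 1.27 (adjusted p = 0.030), or 0.67 without control replicate 1, and its call was lost without control replicate 1 or without DOX+IL-17A replicate 2 or 5 (adjusted p = 0.051, 0.12 and 0.064). *Cox6c*, the most abundant member, had a log2 fold change of 0.19 (adjusted p = 0.51). Of 32 lysosome genes 1 rose (3.12%) and 1 fell (3.12%) (median 0.31). *Atp6v0c*, the proteolipid of the proton pump, was at 339.9, 216 and 279.9 and 754, 472 and 698 units, a log2 difference of 1.19 ± 0.23 (adjusted p = 0.0033), whereas *Glb1*, beta-galactosidase, was at 22.8, 31.8 and 45.7 and 16.8, 7.55 and 12.6, a log2 difference of -1.38 ± 0.32 (adjusted p = 0.0098) and an adjusted p of 0.051 without control replicate 5. *Npc2*, the most abundant lysosome gene, had a log2 fold change of -0.21 (adjusted p = 0.70). Of 23 cholesterol synthesis and uptake genes 1 fell (4.35%) and 0 rose (median -0.61, or -0.22 without control replicate 1). Over all alternatives 0 to 9 fell. The gene called was *Pmvk*, phosphomevalonate kinase, at 83.1, 19.97 and 21.1 and 6.13, 8.24 and 7.43 units, a log2 fold change of -2.04 (adjusted p = 0.011) and of -1.39 without that control. *Acat2*, the most abundant member, had a log2 fold change of -0.55 (adjusted p = 0.27).

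Epithelial genes gave 4 that fell (21.1%) and 1 that rose (5.26%) of 19 tested, against 5.95% and 6.95% of all tested genes, with a median log2 fold change of -0.53. *Krt19* was at 119, 225 and 255 units in control and 43.8, 45.8 and 53.2 with DOX+IL-17A, a log2 difference of -1.98 ± 0.28 (adjusted p = 0.00040). *Krt18*, a keratin of simple epithelia like *Krt19*, was at 342, 296 and 352 and 102, 81.4 and 202 units, a log2 difference of -1.46 ± 0.28 (adjusted p = 0.0027). *Epcam*, the epithelial cell adhesion molecule, was at 733, 432 and 453 and 208, 163 and 124 units, a log2 difference of -1.69 ± 0.24 (adjusted p = 0.00040). These 3 genes are among the markers whose summed level was given above, and their groups did not overlap. *Krt7*, the most abundant member, passed the adjusted p but not the fold threshold (log2 fold change -0.89, adjusted p = 0.0037). The gene that rose was *Ehf*, an epithelial transcription factor of the ETS family, at 7.44, 3.41 and 3.06 units in control, 46.6, 51.8 and 45.8 with DOX+IL-17A, 13.04, 12.4, 15.1 and 8.76 with DOX and 30.3, 20.9 and 21.3 with IL-17A alone. Its combination libraries lay above all others, with a log2 difference of 3.20 ± 0.32 (adjusted p = 4.0e-05) against control and 1.90 ± 0.30 (adjusted p = 0.0092) against DOX. The 11 mesenchymal genes had a median of 0.06, and *Vim*, vimentin and the most abundant, was at 2119.6, 3107 and 2559.7 and 1576, 1879 and 1454 units (log2 fold change -0.66, adjusted p = 0.075). Of 40 matrix, integrin and protease genes 4 rose (10%) and 5 fell (12.5%) (median -0.12). Without control replicate 1 these were 5, 6 and a median of 0.12. The median thus changed sign, and over all alternatives it ran from -0.42 to 0.27, with 2 to 7 that rose and 3 to 11 that fell. *Mmp9* and *Mmp13*, given above, also belong here, and *Timp2*, a protease inhibitor and the most abundant member, had a log2 fold change of -0.54 (adjusted p = 0.31). *Itgb4*, an integrin chain of hemidesmosomes, was at 79.8, 105 and 74.6 and 24.1, 29.1 and 43.9 units, a log2 difference of -1.42 ± 0.24 (adjusted p = 0.0015). *Lama5* and *Col18a1*, components of the basement membrane, had log2 fold changes of -1.32 (adjusted p = 0.0036) and -1.30 (adjusted p = 0.0021).

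Of 15 genes for DOX targets, efflux pumps and reductases 2 rose (13.3%) and 1 fell (6.67%), against 6.95% and 5.95% of all tested genes (median 0.29). *Top2b*, a topoisomerase II isoform, was at 168, 182 and 199.9 units in control and 59.9, 73.6 and 98.4 with DOX+IL-17A, a log2 difference of -1.26 ± 0.20 (adjusted p = 0.00077). *Top2a*, the isoform of dividing cells and the most abundant member, was at 2250.2, 1710.2 and 1793 and 1289.5, 1543 and 1706 units, with a log2 fold change of -0.34 (adjusted p = 0.36). The groups overlapped for *Top2a* and did not for *Top2b*. *Abcg2*, the efflux pump BCRP, was at 8.29, 6.88 and 10.3 and 37.6, 44.8 and 43.8 units, a log2 difference of 2.20 ± 0.30 (adjusted p = 0.00037). *Abcb1a*, a P-glycoprotein gene, was at 0.677, 5.66 and 2.24 and 11.04, 17.1 and 8.74 units, a log2 fold change of 1.96 (adjusted p = 0.013) whose call was lost without DOX+IL-17A replicate 3 (adjusted p = 0.057). Of 31 cell death genes 3 rose (9.68%) and 0 fell (median 0.02), and 5 rose without control replicate 3. *Fas*, a death receptor, was at 5.58, 5.72 and 6.95 and 29.7, 26.7 and 15.4 units, a log2 difference of 1.77 ± 0.36 (adjusted p = 0.0041). *Casp4*, an inflammatory caspase, was at 1.02, 0.0609 and 0.118 and 6.95, 3.77 and 5.81 units (log2 fold change 2.25, adjusted p = 0.0024), and *Tnfrsf10b*, the receptor for TRAIL, had a log2 fold change of 1.02 (adjusted p = 0.041), or 0.54 without control replicate 1, and its call was lost without control replicate 1 or 5 or without DOX+IL-17A replicate 2, 3 or 5 or without DOX replicate 1, 2, 3 or 4 or without IL-17A replicate 2 or 3 (adjusted p = 0.10, 0.057, 0.13, 0.10, 0.054, 0.057, 0.051, 0.057, 0.054, 0.051 and 0.053). *Xiap*, a caspase inhibitor and the most abundant member, had a log2 fold change of -0.20 (adjusted p = 0.48). Of 23 NRF2 antioxidant genes 1 rose (4.35%) and 2 fell (8.70%) (median -0.15), and each of these calls was lost without some library. That of *Osgin1* (log2 fold change 1.27, adjusted p = 0.026) was lost without control replicate 3 or 5 or without DOX+IL-17A replicate 2 (adjusted p = 0.057, 0.076 and 0.12), that of *Srxn1* (log2 fold change -1.21, adjusted p = 0.026) was lost without control replicate 3 or 5 or without DOX+IL-17A replicate 3 (adjusted p = 0.077, 0.057 and 0.12), and that of *Gstm1* (log2 fold change -1.36, adjusted p = 0.021) was lost without control replicate 5 or without DOX+IL-17A replicate 3 or 5 (adjusted p = 0.073, 0.082 and 0.068). *Fth1*, ferritin heavy chain and the most abundant, was at 689, 1269 and 1530.0 and 4906, 1822 and 1966 units (log2 fold change 1.24, adjusted p = 0.056), with treated replicate 2 far above the others. *Tnfrsf10b* was not called with DESeq2 (log2 fold change 0.87), edgeR (adjusted p = 0.070) or voom with limma (adjusted p = 0.061). *Fth1* was called higher with DESeq2, edgeR and scaling by library size (adjusted p = 0.015, 0.047 and 0.032).

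Of 21 Notch pathway genes 2 rose (9.52%) and 5 fell (23.8%), against 6.95% and 5.95% of all tested genes (median -0.05). Without control replicate 1 these were 2, 4 and a median of -0.32. The number that fell was 3 without DOX+IL-17A replicate 2, as it was without control replicate 5. *Jag1*, a ligand, was at 47.2, 50.8 and 48.4 units in control and 137, 219.6 and 124 with DOX+IL-17A, a log2 difference of 1.65 ± 0.32 (adjusted p = 0.0036). *Notch1*, a receptor, was at 27.4, 48.3 and 43.4 and 11.9, 20.8 and 13.5 units, a log2 difference of -1.31 ± 0.30 (adjusted p = 0.0084). *Rbpj*, the DNA-binding factor of the pathway, was at 842, 792 and 826 and 264, 357 and 444 units, a log2 difference of -1.24 ± 0.20 (adjusted p = 0.00097). *Lfng*, which modifies Notch receptors, was at 19.5, 6.70 and 9.43 and 3.48, 1.39 and 1.62 units (log2 fold change -1.96, adjusted p = 0.011). *Jag1* and *Notch1* thus moved in opposite directions, with groups that did not overlap. *Dll1*, another ligand, had a log2 fold change of 1.38 (adjusted p = 0.033), and its call was lost without control replicate 3 or 5 or without DOX+IL-17A replicate 2 or 3 (adjusted p = 0.061, 0.11, 0.14 and 0.088). *Maml3*, a coactivator, had a log2 fold change of -1.34 (adjusted p = 0.020), and its call was lost without control replicate 5 or without DOX+IL-17A replicate 2 (adjusted p = 0.067 and 0.085). Of 17 BMP, SMAD and ID genes 2 rose (11.8%) and 2 fell (11.8%) (median 0.08). Without control replicate 1 these were 1, 1 and a median of -0.18. The sign of this median thus rested on that library. *Id1*, an inhibitor of helix-loop-helix factors, was at 28.9, 49.1 and 46.4 and 188, 146 and 107 units, a log2 difference of 1.80 ± 0.28 (adjusted p = 0.00075). *Bmpr1a*, a BMP receptor, was at 104, 58.4 and 59.8 and 32.7, 39.0 and 24.7 units, a log2 fold change of -1.15 (adjusted p = 0.011), and its call was lost without control replicate 1 or without DOX+IL-17A replicate 5 (log2 fold change -0.88 and -0.98). *Fst*, the activin antagonist follistatin, had a log2 fold change of 2.13 (adjusted p = 0.027), or 2.78 without DOX+IL-17A replicate 5, and its call was lost without control replicate 1 or 5 or without DOX+IL-17A replicate 2 or 3 (adjusted p = 0.051, 0.067, 0.086 and 0.12). *Bmp7*, a ligand, had a log2 fold change of -1.25 (adjusted p = 0.048), and its call was lost without control replicate 3 or 5 or without DOX+IL-17A replicate 2, 3 or 5 or without DOX replicate 1, 2, 3 or 4 or without IL-17A replicate 2, 3 or 5 (adjusted p = 0.12, 0.18, 0.10, 0.071, 0.12, 0.060, 0.056, 0.060, 0.061, 0.059, 0.060 and 0.053). *Id2*, the most abundant member, had a log2 fold change of 0.08 (adjusted p = 0.87). The plot of the gene lists orders all 29 by their median, from the IL-17A response genes at the top to the histone genes at the bottom. *Dll1* was not called with voom with limma (adjusted p = 0.068). *Bmpr1a* was not called with scaling by library size (log2 fold change -0.97). *Fst* was not called with voom with limma (adjusted p = 0.17). *Bmp7* was not called with edgeR (adjusted p = 0.056), scaling by library size (adjusted p = 0.072) or a pseudocount of 0.1 (adjusted p = 0.076).

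**Figure D5:**
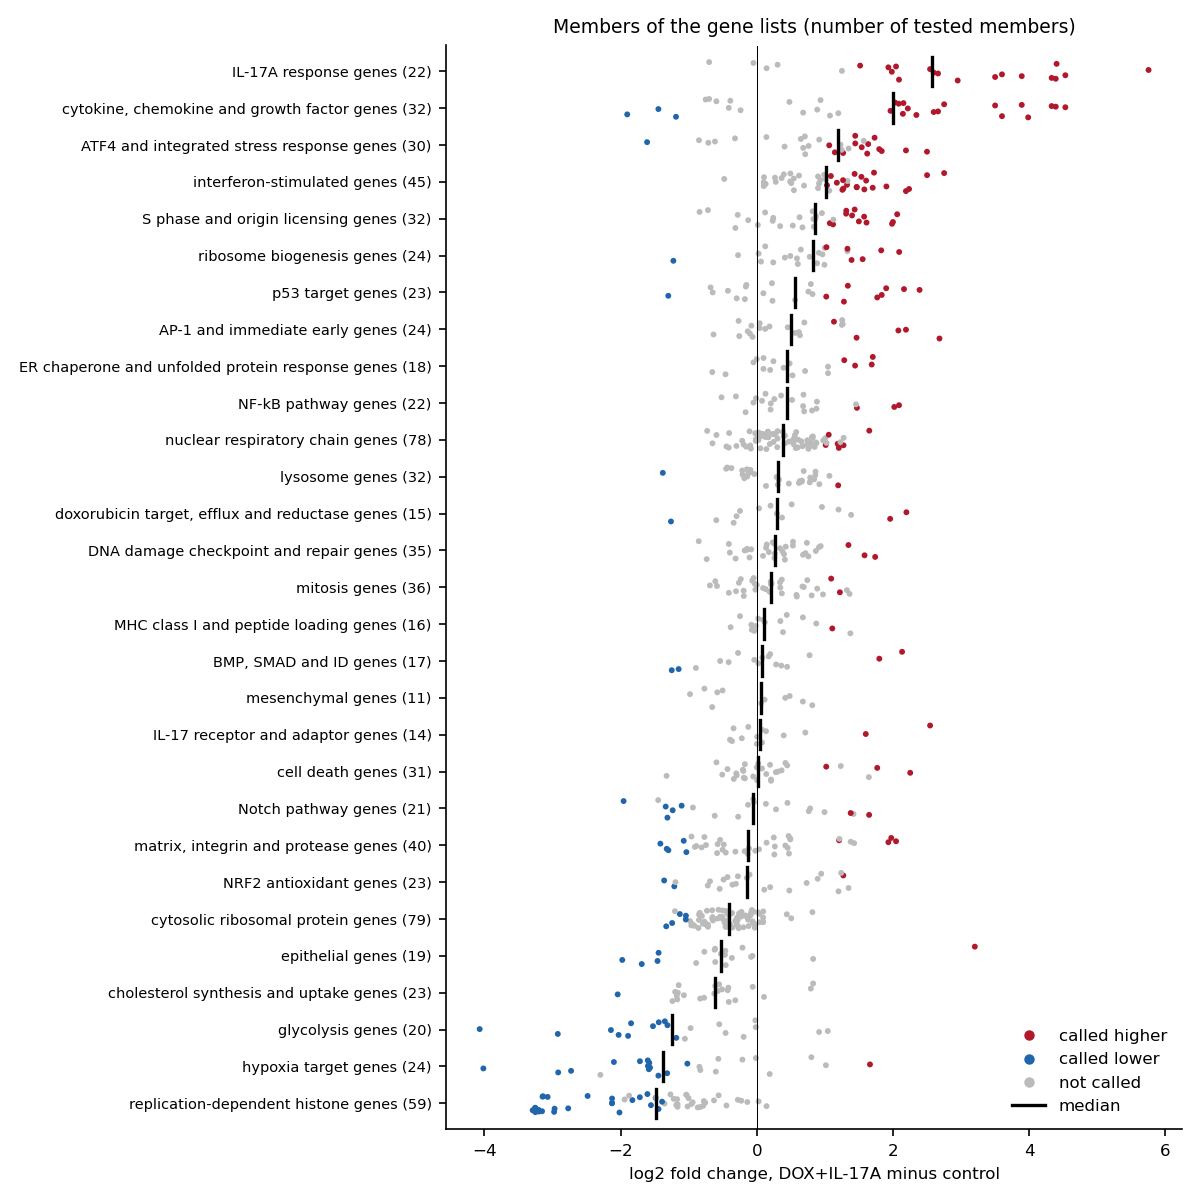
Log2 fold change, DOX+IL-17A minus control, of the tested members of the 29 gene lists, ordered by the median (black bar). Red points were called higher, blue points lower and grey points neither. The highest median is 2.57 (IL-17A response genes) and the lowest -1.48 (replication-dependent histone genes).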

How the data were processed

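Total RNA of 4T1-Thy1.1 cells was made into 13 3' mRNA libraries and sequenced with reads of 75 bases. Per the labels and the study's methods, reads were aligned to mm10 with STAR, counted with featureCounts and TMM-normalized. The deposited table holds the resulting signal per gene and library. All values are whole multiples of the worth of 1 read (100% within a tolerance of 0.01 reads), which gave each library's reads. The table has 13223 entries, of which 1 identical second entry was dropped, and 17 gene names had turned into dates.

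Values were tested as log2(units + 1) with limma 3.58.1 in R 4.3.3, so fold changes of low genes are understated. All 13 libraries of the 4 conditions were fitted together, sharing one estimate of the spread, with 12319 genes past the filter on low reads. A gene was called at a Benjamini-Hochberg adjusted p under 0.05 with more than a 2-fold difference. Every adjusted p in the text comes from this test over all 12319 genes unless another tool, setting or left-out library is named. The study names voom with limma, which was run as an alternative on the recovered reads, as were edgeR 4.0.16 and DESeq2 1.42.0. The other alternatives changed the scaling, filter, pseudocount, fold limit, replicate block and libraries. On simulated data with 200 genes changed 4-fold, limma recovered 125 with 9 false calls. The simulation changed fewer genes than were called here and set no library apart as control replicate 1 was. Its rates therefore do not give the rates in these data.

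The members and gene lists were chosen with earlier results of these data known. Genes were named by a rule: the 12 well expressed genes without overlap that rose most and that fell most, in each list up to 3 called genes per direction and the most abundant, *Il17ra*, *Il17rc* and members of lists of fewer than 17 genes, and up to 5 genes per direction called also against DOX. Some genes that the rule names are not reported here. Other genes were named after their values were seen. Promoters were matched by symbol or older symbol, 9585 in all.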

Additional observations from a re-analysis of the deposited data

Results flagged for a closer look

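The values of the 4 DOX libraries were printed for 15 genes, and each set was examined for a library far from the others. For *U90926* DOX replicate 3 was at 9.09 units against 5.15, 4.38 and 4.38 in DOX replicates 1, 2 and 4. Its gap to the nearest library was 0.836 of the whole range, above Dixon's critical value for 4 libraries. Chance gives such a gap in about 1 group in 20. The other conditions have 3 libraries each and were not examined in this way.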

How the results depend on the processing

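The numbers of genes that rose and fell with DOX+IL-17A (856 and 733) stayed within 1.5 times under every alternative run except the fit to the compared groups alone, with fewer degrees of freedom, which called 305 higher and 294 lower. Leaving out 1 library at a time gave 598 to 988 higher and 519 to 847 lower. A count of 888 genes was called in the same direction under each of voom with limma, DESeq2, edgeR, scaling by library size, a pseudocount of 0.1 and the replicate block. The 25 genes called against control and also against DOX alone became 47 with DESeq2, 13 with a pseudocount of 0.1 and 10 with the replicate block, and ranged from 1 to 44 when 1 library was left out. The cause was not tested. The compared groups alone could give no value against DOX.

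Control and DOX+IL-17A share replicate numbers 3 and 5 only. Deviations of same-numbered libraries from their group means correlated at 0.125 and 0.044, so the numbers were not taken as pairs. Over same-numbered libraries of all 4 conditions these correlations ran from -0.175 to 0.491, and for DOX+IL-17A and IL-17A alone they were 0.168, 0.203 and 0.355. With the replicate block in the fit of all libraries, 637 genes were higher and 557 lower, and 1065 genes were called both with and without it. Of 116 called genes examined singly, 14 were not called with the block (*B2m*, *Bmpr1a*, *Cox5a*, *Espl1*, *Fst*, *Il1b*, *Loxl2*, *Mad2l1*, *Maml3*, *Manf*, *Mmp13*, *Rps20*, *Sesn1* and *Tnfrsf10b*), 35 in the fit to the compared groups alone and 15 in that fit with the block. The last fit called 984 genes higher and 954 lower. It rests on replicate numbers 3 and 5 alone, as the other numbers have no partner, so its fewer lost calls are no stronger support. In the fit to the compared groups alone p53 target genes that rose went from 8 to 5, AP-1 genes from 5 to 3 and chaperone genes from 4 to 2. No called gene named in the text changed direction under any alternative run. Depth limits genes near 3 reads per library, 0.183 to 0.613 units.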
